A study of Homo sapiens with 28 samples.

Results

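HNRNPL, its paralog HNRNPLL and the polypyrimidine tract binding proteins PTBP1, PTBP2 and PTBP3 are related RNA-binding proteins. These 5 genes were taken by symbol from the 18417 genes of the arrays, each through the only probeset that carries its symbol. All 5 were tested, since no filter on low values was used. HEK293 cells, a line from human embryonic kidney, received lentiviral short hairpin RNAs (shRNAs) driven by the U6 promoter, were kept under puromycin and were harvested after 6 days. Each array holds the RNA of cells with 1 hairpin. In the first series the hairpins targeted HNRNPL, CLP1, DDX5 or DDX17 (3 hairpins each), CPSF6 (1) or the bacterial lacZ gene, which serves as control (1). In the second they targeted PABPC1, PARP1, PRKDC or SUPT16H (3 each) or lacZ (2). The sample titles name no series, but the array medians of the 2 series do not overlap. The study kept the hairpins that most reduced their own targets by real-time PCR, so a lower HNRNPL with HNRNPL hairpins is a check of the labels.

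As background, HNRNPL binds CA-rich RNA and can silence or favour nearby exons and poly(A) sites. HNRNPLL binds similar RNA and is best known for the switch in CD45 splicing of activated lymphocytes. PTBP1 binds pyrimidine-rich RNA and represses many exons in most cell types, among them an exon of PTBP2 whose loss sends the PTBP2 transcript to decay. PTBP2 takes over in developing neurons, and PTBP3 was first described in blood cells. The deposited values summarise the probes of each gene's probeset in 1 value, so exon inclusion was not analysed here.

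One lacZ array appears to be in both series, although the labels do not say so. Replicate 1 (first series) and replicate 2 (second series) differed by a mean of 0.33 log2 units with an SD over genes of 0.06, and 0 genes lay over 1 unit from that mean. That SD was 0.24 and 0.23 in the other pairs of lacZ arrays, so both were taken as 1 sample, used once within each series. The linear model entered them as separate arrays. Every first-series difference from lacZ thus rests on a single control array. Judged by array medians, 61.5 to 74 in the first and 54.5 to 58.3 in the second, the series were normalized apart. Levels are therefore compared only within a series. Whether lacZ arrays represent separate cultures is not given in the labels, so p-values reflect the spread among arrays, which may be partly technical. The hairpins against a gene served as its replicates, so this spread also holds differences between hairpins. Of 8 genes known from HEK293 cells 6 lay above the median of all genes, against 0 of 6 measured blood cell markers, 1 of 6 fibroblast markers (COL1A1) and 0 of 6 keratinocyte markers.

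HNRNPL, the targeted gene, was lower in 3 of 3 HNRNPL hairpin arrays than in lacZ, but so it was in every other knockdown array of the first series. Its level was 10.04 (log2 intensity, as for all levels here) in lacZ and 8.78, 9.11 and 9.44 with HNRNPL hairpins 1, 2 and 3. This left 41.8%, 52.5% and 65.9% of the lacZ signal. Hairpin 1 gave the lowest HNRNPL of the series, and hairpin 3 lay close to the CPSF6 array, at 9.46. The difference from lacZ was -0.93 ± 0.30 (SE of limma, 95% confidence interval -1.55 to -0.31), which did not pass over all genes (adjusted p = 0.129, range over 11 alternatives 0.00393 to 0.403). It passed with array weights (-1.01) and with quantile normalization over all arrays, no series term and the shared lacZ array averaged (-1.04, adjusted p = 0.0407). None of the 5 genes passed in this comparison (2 at an unadjusted p under 0.05, HNRNPL and PTBP2), in which 1.84% of all genes did. Counts at an unadjusted p, here and below, are given without the share of all genes at that threshold and show no excess by themselves.

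HNRNPL also lay low in arrays whose hairpins were aimed at other genes. With DDX5 hairpins 1, 2 and 3 it read 9.01, 9.98 and 9.92. With DDX17 hairpins it read 9.07, 9.51 and 9.57. Hairpin 1 of DDX5 and hairpin 1 of DDX17 left 49.0% and 51.2% of the lacZ signal, less than HNRNPL hairpins 2 and 3 left, while the other DDX5 hairpins lay next to lacZ. With CLP1 hairpins HNRNPL read 9.63, 9.53 and 9.67, a narrow group between lacZ and all 3 HNRNPL hairpins. In all, 13 of 13 knockdown arrays lay below the lacZ array, and 2 of the 10 with other targets lay within the range of the HNRNPL hairpins. The count of 13 rests on a single lacZ array. VEGFA and KHSRP lay above that array, and FGFR2 and CCNT1 below it, in 13 of 13, while FAS lay on both sides (7 above, 6 below). Counts of arrays on 1 side of lacZ are given throughout without the share of all genes with such a count.

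**Figure D1:**
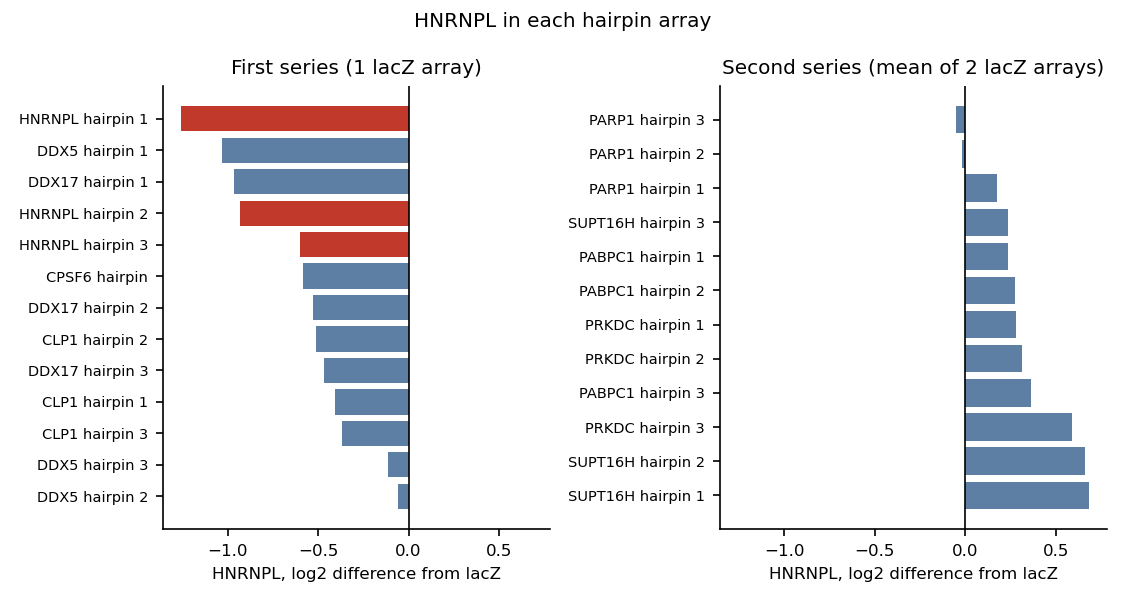
HNRNPL in each knockdown array as its log2 difference from the lacZ array of the first series (left) or from the mean of both lacZ arrays of the second (right), 1 bar per array, with HNRNPL hairpins in red and other hairpins in blue. All 13 first-series bars lie below 0, and hairpin 1 of DDX5 and of DDX17 lie among the HNRNPL hairpins. In the second series 10 of 12 bars lie above 0.

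Set against the 9 CLP1, DDX5 and DDX17 hairpins, the HNRNPL hairpins averaged 0.44 lower (9.11 against 9.54), which did not pass an exact permutation test over arrays (two-sided p = 0.0818, smallest possible 0.00909). Against all 11 other first-series arrays, lacZ included, the mean difference was -0.47 (exact permutation p = 0.0604). Both tests exchange arrays freely, although hairpins share targets and targets differ in spread, so their p-values do not account for that grouping. In limma the difference from the mean of the CLP1, DDX5 and DDX17 knockdowns was -0.44 ± 0.17 (95% confidence interval -0.79 to -0.08, adjusted p = 0.486), in a comparison in which 0.0977% of all genes passed and none of these 5 did (HNRNPL and PTBP2 at an unadjusted p under 0.05). Taken singly, the difference was -0.50 ± 0.21 from CLP1 (adjusted p = 0.266), -0.53 ± 0.21 from DDX5 (0.642) and -0.28 ± 0.21 from DDX17 (0.785). None of the 5 genes passed in any of these 3 comparisons, in which 0.652%, 0.152% and 0.0597% of all genes did, while 2, 2 and 0 of the 5 had an unadjusted p under 0.05. The interval of the difference from DDX17 ran from -0.72 to 0.16, and the value was -0.11 without HNRNPL hairpin 1, -0.44 without HNRNPL hairpin 3, -0.43 without DDX17 hairpin 1 and -0.18 without DDX17 hairpin 3. The difference from DDX5 moved to -0.84 without DDX5 hairpin 1 and then passed (adjusted p = 0.0397, range over 15 alternatives 6.69e-06 to 0.9999). The lower end of that range comes from array weights, under which the DDX5 mean rests mainly on hairpin 2. The difference from the 3 other knockdowns moved to -0.27 without HNRNPL hairpin 1 (adjusted p = 0.793, range over 21 alternatives 0.00121 to 0.897).

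Ordered by mean, HNRNPL in the first series was lowest with HNRNPL hairpins (9.11 ± 0.33, SD, n = 3), then with DDX17 (9.38 ± 0.27), CPSF6 (9.46, 1 array), CLP1 (9.61 ± 0.07) and DDX5 (9.64 ± 0.55). The lacZ array (10.04) was highest. Neighbours in this order overlapped except CPSF6 with CLP1 and DDX5 with lacZ, and each of those pairs includes a single array. Hairpins against one gene differed more in HNRNPL level for DDX5 than for any other target of either series.

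The mean of the CLP1, DDX5 and DDX17 knockdowns differed from lacZ in HNRNPL by -0.49 ± 0.28 (95% confidence interval -1.06 to 0.07, adjusted p = 0.539). None of the 5 genes passed here, 0 had an unadjusted p under 0.05, and 1.67% of all genes passed. Each target alone gave -0.65 ± 0.30 for DDX17 (adjusted p = 0.30), -0.40 ± 0.30 for DDX5 (0.650) and -0.43 ± 0.30 for CLP1 (0.776). None of the 5 genes passed against lacZ with these targets, beside 2.77%, 0.842% and 0.956% of all genes, and 2, 1 and 0 of the 5 had an unadjusted p under 0.05. The DDX5 value rested on its hairpin 1, without which it was -0.09.

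In the second series HNRNPL lay on the other side of lacZ. The lacZ arrays read 9.67 and 9.95. With SUPT16H hairpins HNRNPL read 10.49, 10.47 and 10.04, with PRKDC hairpins 10.09, 10.12 and 10.40, and with PABPC1 hairpins 10.05, 10.09 and 10.17. All 9 of these arrays lay above both lacZ arrays, whereas PARP1 hairpins, at 9.98, 9.79 and 9.76, gave 1 array above both and 2 between them. The largest difference of a target, SUPT16H, was 0.53 ± 0.24 (95% confidence interval 0.04 to 1.02) and did not pass (adjusted p = 0.144, range over 13 alternatives 0.00929 to 0.517), although it did with each series fitted alone (0.0330) and with array weights (0.59, 0.00929). Nor did HNRNPL pass with PRKDC (0.39 ± 0.24, adjusted p = 0.180), PABPC1 (0.29 ± 0.24, 0.441) or PARP1 (0.04 ± 0.24, 0.953). The mean of the 4 knockdowns differed from lacZ by 0.31 ± 0.20 (95% confidence interval -0.10 to 0.72, adjusted p = 0.243, range over 22 alternatives 0.0686 to 0.733). It was 0.17 without lacZ replicate 2, the array that appears in both series, and 0.46 without lacZ replicate 3, and the PABPC1 difference was 0.15 and 0.44 likewise. The PARP1 difference turned to -0.11 without lacZ replicate 2 and to -0.035 without PARP1 hairpin 1. None of the 5 genes passed for that mean or had an unadjusted p under 0.05, while 17.6% of all genes passed. In the order of means PARP1 overlapped lacZ, PABPC1 (10.10 ± 0.06) lay above PARP1 (9.84 ± 0.12) without overlap, and PABPC1, PRKDC (10.20 ± 0.17) and SUPT16H (10.34 ± 0.25) overlapped their neighbours.

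The 2 series were then set against each other in hairpins that do not target HNRNPL, a comparison chosen after the data were seen. The mean HNRNPL difference from lacZ in the first series (-0.49) minus that in the second (0.31) was -0.81 ± 0.34. It did not pass over all genes (adjusted p = 0.593), nor did the other 4 genes, in a comparison in which 0.0597% of all genes passed, and 1 of the 5, HNRNPL, had an unadjusted p under 0.05. Both sides of this difference use the shared lacZ array. The fit took its 2 copies as independent, so the SE and p of this difference do not measure the spread of a shared sample. Its HNRNPL level was the highest of 14 arrays in the first series and the lowest of 14 in the second.

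**Figure D2:**
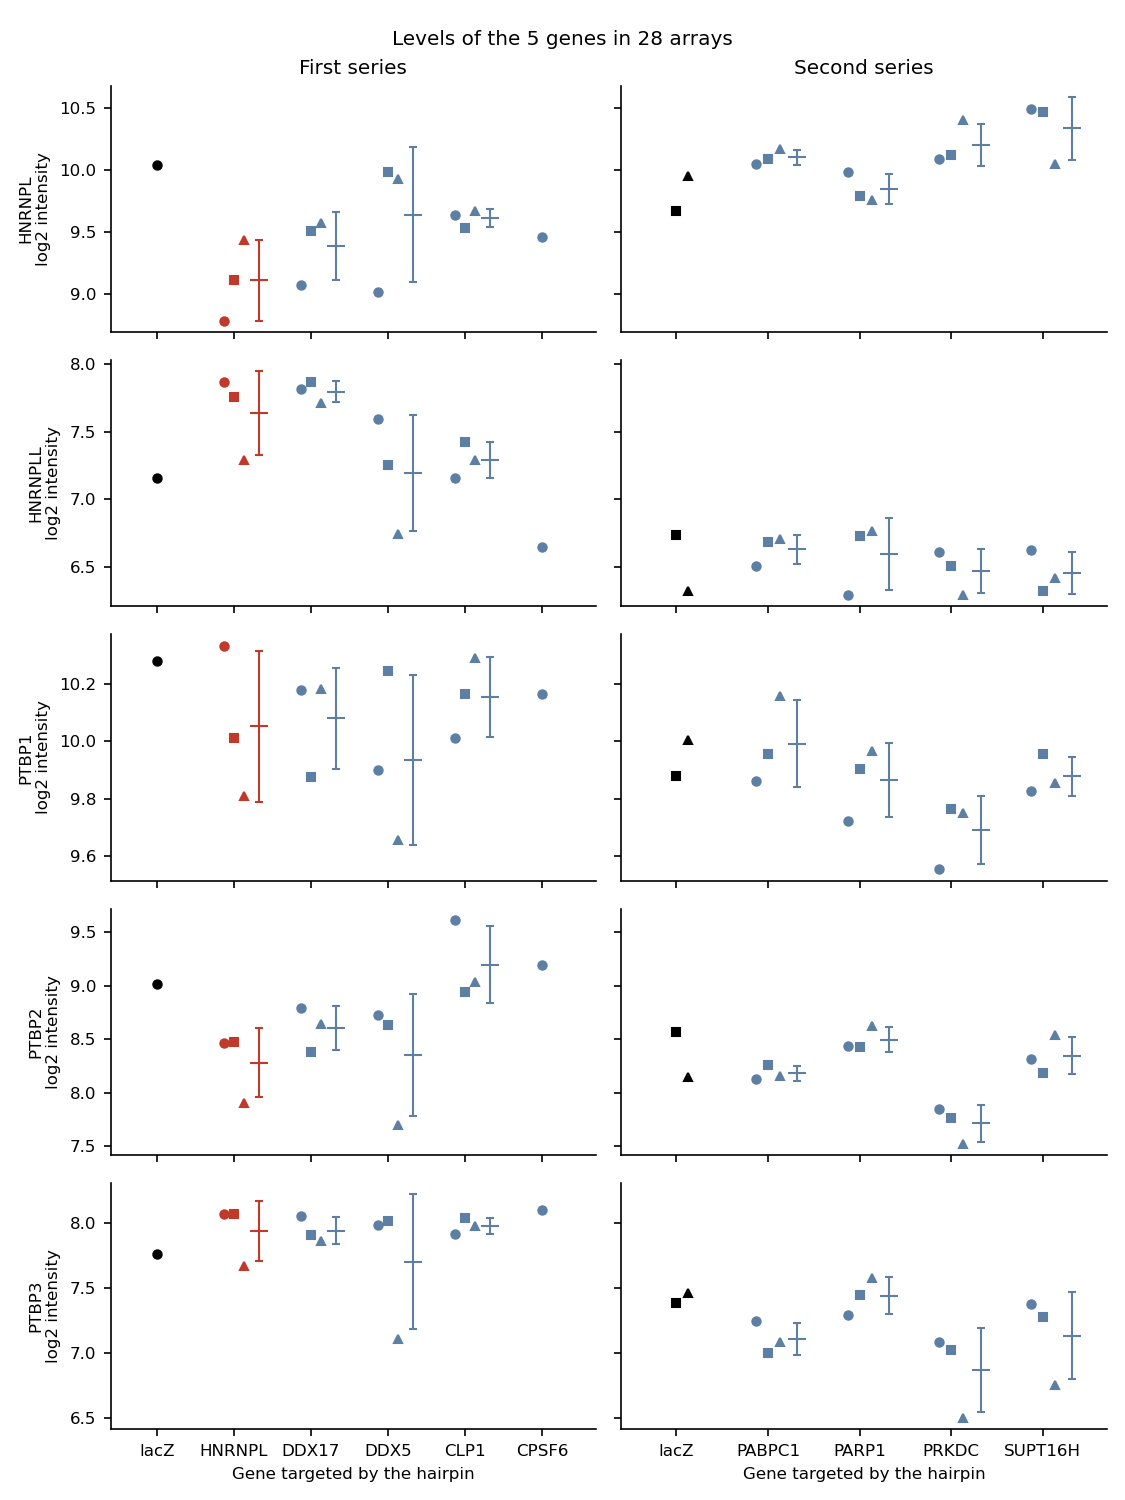
Level (log2 intensity) of each gene, 1 row per gene with its own axis, in the 14 arrays of the first (left) and the 14 of the second series (right) by the gene targeted. Black points are lacZ, red points HNRNPL hairpins and blue points other hairpins, with circles, squares and triangles for hairpin or lacZ replicates 1, 2 and 3, and bars giving the mean and SD of 3 hairpins. HNRNPL hairpins (8.78 to 9.44) overlap DDX5 and DDX17 hairpins in HNRNPL, HNRNPLL is highest with HNRNPL and DDX17 hairpins, and PTBP2 is lowest of its series in DDX5 hairpin 3 (7.69) and with PRKDC hairpins (7.52 to 7.85).

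HNRNPLL, the paralog, lay higher in the HNRNPL and DDX17 knockdowns than in lacZ without passing. Its level was 7.16 in lacZ, 7.87, 7.76 and 7.29 with HNRNPL hairpins, and 7.82, 7.87 and 7.71 with DDX17 hairpins. These include the 4 highest levels of the series, while HNRNPL hairpin 3, the one with the least loss of HNRNPL, lay among the CLP1 hairpins (7.16, 7.43 and 7.29). The difference from lacZ was 0.48 ± 0.27 with HNRNPL hairpins (95% confidence interval -0.07 to 1.03, adjusted p = 0.475, range over 11 alternatives 0.0228 to 0.699) and 0.64 ± 0.27 with DDX17 hairpins (95% confidence interval 0.09 to 1.19, adjusted p = 0.236, range over 11 alternatives 0.00519 to 0.456). Both passed with array weights (0.61 and 0.64, adjusted p = 0.0498 and 0.0436) and with quantile normalization, no series term and the shared lacZ array averaged (0.73 and 0.86, adjusted p = 0.0228 and 0.00519). With DDX5 hairpins HNRNPLL ran from 7.59 in hairpin 1 through 7.26 in hairpin 2 to 6.74 in hairpin 3, on both sides of lacZ, and the CPSF6 array was the lowest at 6.65.

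Against the other knockdowns of the series the HNRNPLL difference was 0.21 ± 0.15 with HNRNPL hairpins (adjusted p = 0.767) and 0.42 ± 0.15 with DDX17 hairpins (adjusted p = 0.242), where 0 of the 5 genes (1 at an unadjusted p under 0.05) and 0.874% of all genes passed. HNRNPL hairpins differed in HNRNPLL by 0.35 ± 0.19 from CLP1 (adjusted p = 0.387), by 0.44 ± 0.19 from DDX5 (0.668) and by -0.16 ± 0.19 from DDX17 (0.885, 95% confidence interval -0.55 to 0.23). In the order of first-series means every neighbour of HNRNPLL overlapped except the single CPSF6 and lacZ arrays. Second-series HNRNPLL varied little, from 6.29 to 6.77 over 12 knockdown arrays, 6 above and 6 below the lacZ mean (lacZ arrays 6.74 and 6.32), and all neighbouring targets overlapped.

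Arrays with less HNRNPL tended to have more HNRNPLL, but this was not particular to the paralog, since PTBP3 had similar values. Over the 14 first-series arrays Pearson's r was -0.63 (permutation p = 0.0183) and Spearman's rho was -0.63 (permutation p = 0.0202). Of 20 relations computed between pairs of the 5 genes in the 2 series none passed after adjustment over them, and here the adjusted p was 0.103 for r and 0.262 for rho. Without the 2 arrays farthest from the median HNRNPL r was -0.55. Without the 3 HNRNPL hairpins r was -0.51 over 11 arrays (permutation p = 0.111, adjusted 0.279) and rho -0.46 (permutation p = 0.156, adjusted 0.411), and r was -0.28 when the 2 farthest of these were left out too. With each array centred on its median r was -0.58 (permutation p = 0.0305, adjusted 0.137) and rho -0.42 (permutation p = 0.134, adjusted 0.383). In the second series r was -0.46 (permutation p = 0.10, adjusted 0.201) and rho -0.39 (permutation p = 0.170, adjusted 0.322), and r was -0.53 without the 2 farthest arrays. There HNRNPL had a similar r with PTBP2, of -0.55 (permutation p = 0.0416, adjusted 0.139, rho -0.60, permutation p = 0.0275, adjusted 0.262, r -0.81 without the 2 farthest). With PTBP3 it was -0.46 (permutation p = 0.0962, adjusted 0.201, rho -0.55, permutation p = 0.0430, adjusted 0.262, r -0.84 without the 2 farthest). In the first series HNRNPL had r of -0.50 with PTBP3 (permutation p = 0.0669, adjusted 0.191) and rho of -0.53 (permutation p = 0.0524, adjusted 0.262). With median-centred arrays these were -0.54 (permutation p = 0.0401, adjusted 0.137) and -0.66 (permutation p = 0.0121, adjusted 0.242). Over all genes, 2.2% had a lower r with HNRNPL in the first series than HNRNPLL had. This share was 14% without the 3 HNRNPL hairpins and 16% in the second series. Hairpins against one gene share a target, so these arrays are not fully independent.

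**Figure D3:**
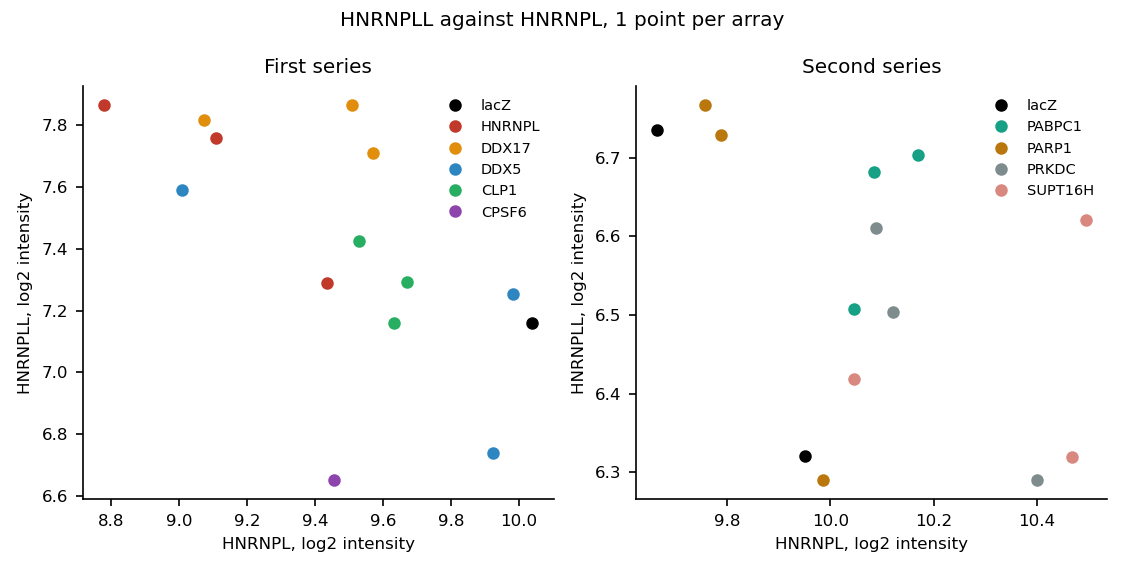
HNRNPLL against HNRNPL (log2 intensity), 1 point per array, coloured by the gene targeted, in the first (left) and second series (right), with different axis ranges. In the first series (r = -0.63) the arrays lowest in HNRNPL, HNRNPL hairpin 1, DDX5 hairpin 1, DDX17 hairpin 1 and HNRNPL hairpin 2, have HNRNPLL of 7.59 to 7.87, above the 7.16 of lacZ. The CPSF6 array (6.65) lies apart.

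PTBP1, the widely expressed repressor, varied least of the 5 in the first series. It read 10.28 in lacZ and 10.33, 10.01 and 9.81 with HNRNPL hairpins, so the hairpins lay on both sides of the control. The difference was -0.23 ± 0.23 (95% confidence interval -0.71 to 0.25, adjusted p = 0.780), and over the 13 knockdown arrays PTBP1 ran from 9.66 to 10.33. The lowest array was DDX5 hairpin 3, and the DDX5 mean differed from lacZ by -0.35 ± 0.23 (adjusted p = 0.610). The lowest mean of the second series was that of PRKDC hairpins, at 9.55, 9.76 and 9.75 against 9.88 and 10.01 in lacZ, a difference of -0.25 ± 0.18 (adjusted p = 0.264) that turned to 0.039 with quantile normalization over all arrays. The order of PTBP1 means held no separated neighbours in the second series, and in the first only the single lacZ array stood apart from the next.

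PTBP2, the form known from neurons, ranged most widely, over 1.92 log2 units in the first-series knockdown arrays. It read 9.02 in lacZ and 8.46, 8.48 and 7.90 with HNRNPL hairpins. With DDX5 hairpins it read 8.73, 8.63 and 7.69, and with DDX17 hairpins 8.79, 8.38 and 8.64, so all 9 of these arrays lay below lacZ. With CLP1 hairpins, at 9.62, 8.94 and 9.04, and in the CPSF6 array, at 9.20, PTBP2 lay at or above lacZ in 3 of 4 arrays. The differences from lacZ were -0.74 ± 0.32 for HNRNPL (95% confidence interval -1.39 to -0.08, adjusted p = 0.297), -0.67 ± 0.32 for DDX5 (0.429), -0.42 ± 0.32 for DDX17 (0.646) and 0.18 ± 0.32 for CLP1 (0.957), none of which passed. In the order of means HNRNPL, DDX5 and DDX17 overlapped, and the single lacZ array lay apart from DDX17 below it and CPSF6 above it.

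In 1 comparison of the first series a member passed. PTBP2 was higher in CLP1 knockdown than in the mean of the HNRNPL, DDX5 and DDX17 knockdowns, by 0.79 ± 0.18 (95% confidence interval 0.41 to 1.16, adjusted p = 0.0445), with 0.722% of all genes passing in either direction and 0.483% higher. The 3 CLP1 hairpins (8.94 to 9.62) lay above all 9 arrays of the other 3 targets (7.69 to 8.79). The call was lost without any 1 of the CLP1 hairpins (0.181, 0.112 and 0.212 without hairpins 1, 2 and 3), without DDX17 hairpin 2 (0.0866) or 3 (0.0618), without HNRNPL hairpin 3 (0.0698) and in a fit of the first series by itself (0.283), with a range over 21 alternatives of 0.000809 to 0.283. HNRNPL hairpins differed in PTBP2 by -0.44 ± 0.18 from the other knockdowns (adjusted p = 0.506) and by -0.92 ± 0.22 from CLP1 (95% confidence interval -1.38 to -0.46, adjusted p = 0.0541).

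In the second series PTBP2 fell in PRKDC knockdown. It read 8.56 and 8.15 in lacZ and 7.85, 7.76 and 7.52 with PRKDC hairpins, the 3 lowest of the 14 arrays, a difference of -0.64 ± 0.25 (95% confidence interval -1.16 to -0.13, adjusted p = 0.0481). In this comparison 35.7% of all genes passed and 16.1% were lower, so 1 fall among 5 genes is near the background. The call was lost without any 1 of the 3 PRKDC hairpins (0.0623, 0.0683 and 0.126 without hairpins 1, 2 and 3) and without lacZ replicate 2 (0.332) or 3 (0.0651) and with quantile normalization over all arrays (-0.35, adjusted p = 0.192), with a range over 13 alternatives of 0.00449 to 0.332. Against the other second-series knockdowns the difference was -0.63 ± 0.18 (adjusted p = 0.119), where 0 of the 5 genes (2 at an unadjusted p under 0.05) and 0.0869% of all genes passed. PABPC1 (8.13, 8.26 and 8.16), SUPT16H (8.32, 8.18 and 8.54) and PARP1 hairpins (8.44, 8.42 and 8.63) lay above every PRKDC array, and none of the 5 genes passed against lacZ with these 3 targets, beside 5.76%, 9.53% and 5.44% of all genes, with an unadjusted p under 0.05 in 0, 1 and 0 of the 5.

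The arrays with the least PTBP2 had high medians over all probesets. In the first series DDX5 hairpin 3 and HNRNPL hairpin 3 had the 2 highest array medians (74 and 70.6) and the 2 lowest levels of PTBP1, PTBP2 and PTBP3. The 3 PRKDC arrays of the second series had the 3 highest medians (58.3, 58.1 and 56.8) and the 3 lowest PTBP2 levels. The part of the array median in these levels was not tested. With each array centred on its median, PTBP2 in CLP1 knockdown against the other knockdowns no longer passed (0.73, adjusted p = 0.0638, beside 0.79 and 0.0445). This centring moved the other PTBP2 differences little, to -0.72 for HNRNPL from -0.74 and to -0.65 for DDX5 from -0.67. For PRKDC the difference was -0.65 beside -0.64 and stayed a call (adjusted p = 0.0449). Centring on the median over all probesets was not done.

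**Figure D4:**
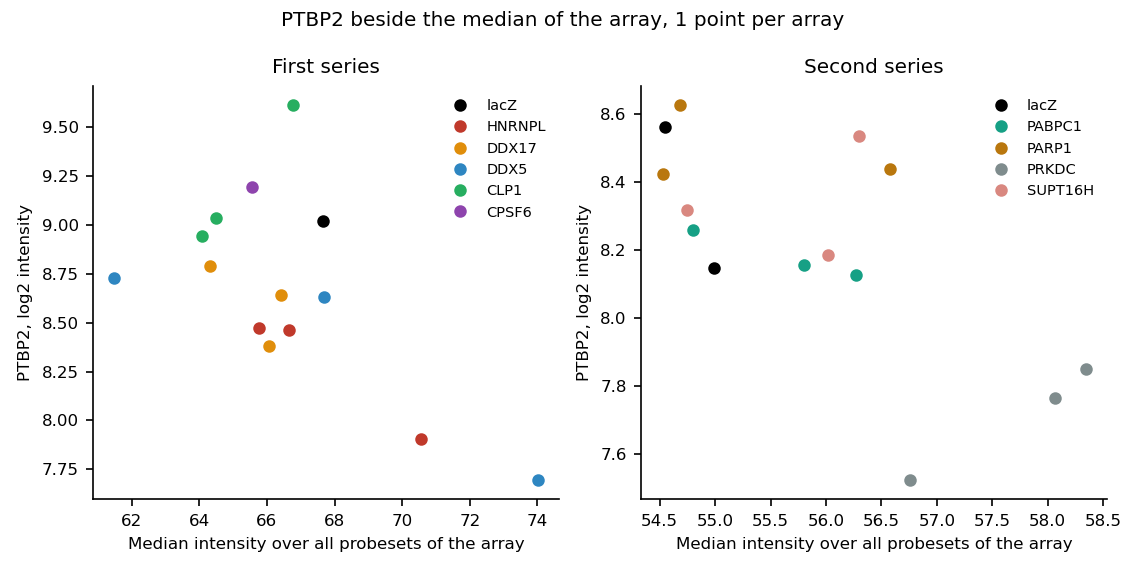
PTBP2 (log2 intensity) against the median linear intensity over all probesets of the array, 1 point per array, coloured by the gene targeted, in the first (left) and second series (right). DDX5 hairpin 3 (median 74, PTBP2 7.69) and HNRNPL hairpin 3 (70.6, 7.90) lie lowest and farthest right in the first series, and the 3 PRKDC arrays (medians 56.8 to 58.3) in the second.

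PTBP3 lay higher than lacZ in 11 of 13 first-series knockdown arrays and lower than both lacZ arrays in 10 of 12 of the second. It read 7.76 in the first lacZ array and 8.07, 8.07 and 7.67 with HNRNPL hairpins, a difference of 0.18 ± 0.29 (95% confidence interval -0.42 to 0.77, adjusted p = 0.894). The arrays below lacZ were HNRNPL hairpin 3 and DDX5 hairpin 3 (7.11), which stood 0.57 below the next array. In the second series PTBP3 read 7.39 and 7.46 in lacZ and 7.09, 7.02 and 6.50 with PRKDC hairpins, a difference of -0.55 ± 0.23 (95% confidence interval -1.02 to -0.08) that missed the threshold (adjusted p = 0.0586, range over 13 alternatives 0.0160 to 0.222) and passed with each series fitted alone (0.0270) and with array weights (-0.41, 0.0160). Against the other knockdowns of the series it was -0.36 ± 0.17 (adjusted p = 0.193). SUPT16H hairpin 3, at 6.75, was the second lowest array. Among second-series means only SUPT16H and lacZ were neighbours without overlap.

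PTBP2 and PTBP3 had r of 0.62 over the first-series arrays (permutation p = 0.0221, adjusted 0.103) with rho of 0.32 (permutation p = 0.259, adjusted 0.370), and r of 0.61 in the second (permutation p = 0.0209, adjusted 0.103) with rho of 0.50 (permutation p = 0.0686, adjusted 0.275). Without the 2 arrays farthest from the median PTBP2, r was 0.45 and 0.23, so the second-series value rests largely on those arrays. Over all genes, 81.8% in the first series and 90.2% in the second had a lower r with PTBP2 than PTBP3 had. PTBP1 in the first series had r of 0.66 with PTBP3 (permutation p = 0.00805, adjusted 0.103) and 0.59 with PTBP2 (permutation p = 0.0257, adjusted 0.103). These were 0.03 and 0.09 without the 2 arrays farthest from the median PTBP1, and 0.29 and 0.38 in the second series.

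**Figure D5:**
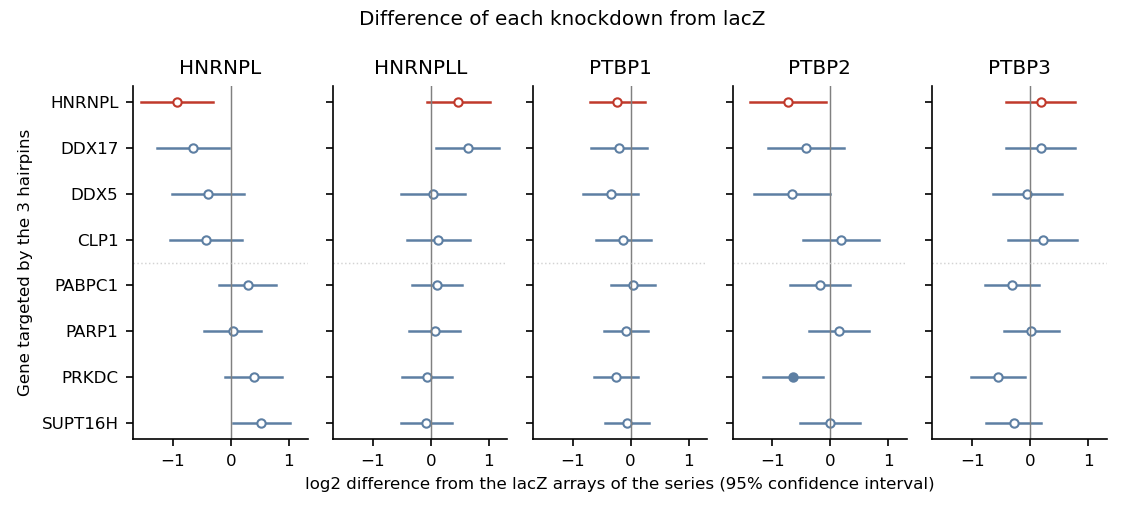
Difference of each knockdown with 3 hairpins from the lacZ arrays of its series (log2, points) with its 95% confidence interval from limma (lines), for each of the 5 genes, with HNRNPL knockdown in red and a dotted line between the first (above) and second series (below). A filled point passed over all genes (adjusted p under 0.05), which holds for PTBP2 in PRKDC knockdown alone among these 40 differences, and the largest differences in HNRNPL in each direction are -0.93 with HNRNPL hairpins and 0.53 with SUPT16H hairpins.

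The genes most alike in pattern were found by Pearson's r over the 27 distinct arrays after each series mean was subtracted. For HNRNPL they were INPP5E (0.72), RGS6 (0.69), RNU5D-1 (0.66), LENEP (0.66) and SH3BP1 (0.66). The other 4 genes had closer neighbours, HNRNPLL with GNPNAT1 (0.86) and NIPSNAP3A (0.86), PTBP1 with YLPM1 (0.80) and PRRC2C (0.80), PTBP2 with TMEM14B (0.89) and POLI (0.88), and PTBP3 with AAAS (0.90) and JRKL (0.89). Each is the highest among all genes, over arrays that share hairpin targets, and is a description.

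Genes around this family were described in HNRNPL knockdown by list. Against lacZ 1.84% of all genes passed in this knockdown. Of 12 partner proteins, such as the PTB corepressor RAVER1 and the HNRNPL-binding methyltransferase SETD2, 0 passed against lacZ in limma (1 at an unadjusted p under 0.05), with a median difference of 0.19 beside -0.01 over all genes. KHSRP, an RNA-binding protein of AU-rich elements, differed by 0.64 ± 0.20 (adjusted p = 0.102) and the poly(C)-binding PCBP2 by 0.41 ± 0.23 (0.475). Of 10 measured RNAs known to be regulated by HNRNPL 0 passed in limma (2 unadjusted, median 0.05). The angiogenic factor VEGFA differed by 0.85 ± 0.29 (adjusted p = 0.157) and the survival factor BCL2 by 0.44 ± 0.19 (0.32). Of 14 measured RNAs known to be regulated by PTB proteins 0 passed in limma (2 unadjusted, median -0.06). The receptor FGFR2 differed by -0.50 ± 0.17 (adjusted p = 0.154) and the actin-binding CTTN by 0.51 ± 0.24 (0.354). In the first series these genes lay on the same side of lacZ with hairpins against other targets. VEGFA, BCL2 and KHSRP were above lacZ and FGFR2 below it in all 13 knockdown arrays of that series. CTTN and PCBP2 were above it in 12 of 13. In the second series VEGFA lay below both lacZ arrays (8.33 and 8.44) in every knockdown array, at 6.80 to 8.06. There BCL2 and KHSRP lay above both, FGFR2 below both except in PARP1 hairpin 3, and CTTN and PCBP2 on both sides. With DDX17 hairpins VEGFA differed from lacZ by 0.87 ± 0.29 (adjusted p = 0.112), BCL2 by 0.55 ± 0.19 (0.144), FGFR2 by -0.57 ± 0.17 (0.0645) and KHSRP by 0.49 ± 0.20 (0.209).

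HNRNPL has been described in a complex with P-TEFb, the kinase that releases paused RNA polymerase. Of 12 measured genes of P-TEFb and pause release 0 passed against lacZ in limma (4 unadjusted, median -0.23). The median of this list was farther from 0 with CLP1 (-0.34), DDX5 (-0.50) and DDX17 hairpins (-0.46). MEPCE, which caps the 7SK RNA that holds P-TEFb inactive, differed by -0.78 ± 0.22 (adjusted p = 0.0605), and CCNT1, the cyclin of P-TEFb, by -1.01 ± 0.34 (0.15). CCNT1 read 10.02 in lacZ, 9.06, 9.26 and 8.71 with HNRNPL hairpins and 8.33 to 9.82 with the other targets, so it lay below lacZ in all 13 knockdown arrays, as MEPCE did. With DDX17 hairpins MEPCE differed from lacZ by -0.73 ± 0.22 (adjusted p = 0.0631) and CCNT1 by -0.71 ± 0.34 (0.331). Of 10 neuronal splicing regulators 1 passed (median -0.04). ELAVL3, a neuronal RNA-binding protein, fell by 2.00 ± 0.19 (adjusted p = 4.74e-07). It read 7.24 in lacZ and 5.23, 5.30 and 5.21 with HNRNPL hairpins, within the 5.08 to 5.50 of the other 10 knockdown arrays. The fall thus set the lacZ array apart from all hairpins against human genes.

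Against the other knockdowns 0 genes passed in limma in any of these 5 lists (0 to 2 of each at an unadjusted p under 0.05), whose medians ran from -0.03 to 0.02 beside -0.02 over all genes. The smallest p-values in their lists belonged to KHSRP (0.26 ± 0.11, adjusted p = 0.529) and RAVER1 (0.26 ± 0.11, 0.537), to the adhesion receptor CD44 (0.34 ± 0.14, 0.486) and MALT1 (-0.41 ± 0.20, 0.594), and to the death receptor FAS (-0.58 ± 0.21, 0.424) and ACTN1 (0.31 ± 0.16, 0.633). In the list of pause release they belonged to NELFCD of the pausing complex NELF (0.46 ± 0.15, 0.361) and SUPT5H of the pausing factor DSIF (0.36 ± 0.12, 0.389), and among the neuronal regulators to RBFOX3 (0.23 ± 0.13, 0.674) and ELAVL2 (-0.18 ± 0.13, 0.764).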

How the data were processed

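RNA of HEK293 cells with 1 hairpin each was hybridised to 28 Affymetrix Human Gene ST1.0 arrays. The deposited values are probeset intensities on a linear scale, to which the authors had applied RMA (background subtraction, quantile normalization and summary of a probeset's probes). Judged by array medians, this was done separately for each series. Of 33252 probesets the 19460 with exactly 1 gene symbol were kept, with the brightest probeset by mean standing for its gene, which gave 18417 genes. log2 values were used without pseudocount or filter. The number of arrays limits the precision.

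One linear model over 28 arrays, with a term per knocked-down gene and for the series, was fitted with limma 3.58.1 in R 4.3.3 (moderated variances with an intensity trend), with Benjamini-Hochberg adjustment over all genes and calls under 0.05. CPSF6 has 1 array and was not tested. Comparisons with lacZ share control arrays. Relations used 100000 permutations. The fit was tested on simulated data. Other steps used scipy 1.17.1, numpy 2.4.6 and pandas 2.3.3 in Python 3.11.15. Genes were named by rule: the 5 genes, the most alike in pattern (5 for HNRNPL, 2 each for the others), and per list at most 3 that passed or the 2 with the smallest p. Members and lists, the latter from general knowledge, were chosen with earlier results of these data known.

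Alternatives were each series fitted alone, quantile normalization over all arrays, the same with no series term and the shared lacZ array averaged into 1, median centring, a pseudocount of 16, a filter on dim genes, no intensity trend, array weights, a block by hairpin number and leaving out arrays. Each of the 5 genes has 1 probeset, so no value from another probeset exists for them.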

Additional observations from a re-analysis of the deposited data

How the results depend on the processing

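With arrays weighted by their estimated precision the difference of HNRNPL knockdown from lacZ in HNRNPL passed (-1.01, adjusted p = 0.00393), and so did that in HNRNPLL (0.61, 0.0498). They also passed with quantile normalization over all arrays, no series term and the shared lacZ array averaged (HNRNPL -1.04, 0.0407, HNRNPLL 0.73, 0.0228). HNRNPLL with DDX17 hairpins passed under both (0.64, 0.0436, and 0.86, 0.00519). Weights made HNRNPL pass against the other knockdowns (-0.61, 0.00121), against CLP1 (-0.55, 0.00393) and against DDX5 (-0.92, 6.69e-06). The weights, estimated from these same arrays, ran from 0.098 for DDX5 hairpin 3 to 6.71 for DDX5 hairpin 2. They gave DDX5 hairpin 1 0.280 and HNRNPL hairpin 3 0.251. The weighted difference from DDX5 thus sets the HNRNPL hairpins mainly against DDX5 hairpin 2, the array next to lacZ in HNRNPL (9.98), and its p does not stand for 3 DDX5 hairpins. Leaving out 1 array gave -1.09 to -0.77 for HNRNPL against lacZ, which never passed (adjusted p 0.0807 to 0.282), and -0.84 to -0.36 against DDX5, which passed without DDX5 hairpin 1. In the exact permutation test against the 11 other first-series arrays, the HNRNPL difference passed with median-centred arrays (-0.47, p = 0.0495) and not with quantile normalization (p = 0.203).

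The PTBP2 fall in PRKDC knockdown was lost with quantile normalization (-0.35), with that and no series term (-0.37), with the pseudocount (-0.61) and without any 1 array of the comparison (-0.85 to -0.44). The PTBP2 difference of CLP1 from the other knockdowns was lost with the series fitted alone (0.79) and with median centring (0.73), and ran from 0.58 to 0.91 without 1 array. Direction turned in PTBP1 with PRKDC hairpins under quantile normalization (0.039, and 0.017 with no series term). It also turned when 1 array was left out in PTBP2 with CLP1 hairpins (-0.029 to 0.31), HNRNPLL with DDX5 (-0.16 to 0.26), HNRNPL with PARP1 (-0.11 to 0.18) and HNRNPLL of HNRNPL against DDX17 hairpins (-0.27 to 0.016). The cause was not tested. Of 882 values of 65 results under alternatives 822 kept direction and side of the threshold, 16 lost it, 37 gained it and 7 reversed. Most of the 65 results were not called in the main fit, and a result that stayed uncalled counts as kept. The 16 losses can come only from the few results called there.

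Hairpin numbers name different sequences. Same-numbered hairpins of different targets deviated together (r over 0.1 in all 3 numbers) in 1 of 12 pairs of targets. That pair was DDX5 with HNRNPL (r of 0.63, 0.23 and 0.83 for hairpins 1, 2 and 3). Other pairs had negative values, such as CLP1 with DDX5 (-0.58, -0.02 and -0.47) and CLP1 with HNRNPL (-0.48, 0.19 and -0.39). The source of the likeness of DDX5 and HNRNPL hairpins was not tested. With the hairpin number as a replicate block PTBP2 of HNRNPL against CLP1 passed (adjusted p = 0.0472) and PTBP2 of CLP1 against the other knockdowns stayed a call (0.0422). The first series holds 1 lacZ array, so leaving it out gave no value.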
